A study of Homo sapiens with 6 samples.

Results

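Potassium channel subunits were followed across 6 RNA sequencing libraries of human neuroblastoma cell lines. A member was a gene of the count table whose symbol is KCN, further letters and a number. Of the 106 rows that match this pattern, 10 antisense, intronic or opposite-strand transcripts and 1 gene that does not encode a protein (KCNQ1DN) were set aside. The remaining 95 members, of 25370 rows in all, were 40 voltage-gated alpha subunits (Kv), 16 inward rectifiers (Kir), 15 tandem-pore leak channels (K2P), 8 calcium- or sodium-activated channels and 16 auxiliary subunits. There were 2 libraries of BE2C cells made to express LMO1, 2 of BE2C cells carrying the vector control, 1 of parental BE2C cells and 1 of Kelly cells. LMO1 encodes a LIM-domain partner of transcription factor complexes, and BE2C and Kelly are established neuroblastoma lines. Promoter, clone number and selection of the forced expression are not given in the sources used here.

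Potassium channels let potassium leave the cell along its gradient, which sets the resting potential and ends action potentials. Kv subunits open on depolarisation, Kir channels pass current best near rest, K2P channels carry a background leak, and calcium- or sodium-activated channels couple outflow to the ions that enter during activity. Auxiliary subunits make no pore and alter the gating or surface expression of the pore-forming ones. Neuroblastoma arises from the sympathetic neural crest, and its cell lines are excitable cells in which several of these currents have been recorded.

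With LMO1, total counts were 18737591 and 22426978. With vector they were 21946052 and 25070942, and the parental and Kelly libraries were deeper at 48663459 and 59512958. Levels are given as CPM (reads of a gene for every 1000000 counted reads), TMM-scaled over all 6 libraries. Where a member has 0 counts, its true count may be up to 3, or 0.157 CPM for the shallowest library and 0.0503 CPM for the deepest. The LMO1 gene itself was at 6.55 and 5.85 CPM in the LMO1 libraries, 1.05 and 0.926 CPM in the vector libraries, 1.93 CPM in parental cells and 94.1 CPM in Kelly cells. All 10 sympathetic neuroblastoma markers passed the filter on low counts, with a summed level of 6498 to 7113 CPM over the 6 libraries. CHGA and MYCN made up most of this sum, which hides differences between the lines. In the 5 BE2C libraries TH was at 1.53 to 6.21 CPM and DBH at 13.4 to 89.8 CPM, against 405 and 873 CPM in Kelly cells. Against vector, 4 of the 10 markers were called higher with LMO1 and 4 lower, with log2 fold changes from -0.23 to 2.57. Among all genes tested, 31% were called. Schwann and melanocytic markers (6 genes, 1 called lower of 4 tested) summed to 15.5 and 16.6 CPM in the LMO1 libraries and 21.0 CPM in each vector library. Fibroblast markers (5 genes tested, 2 called higher and 1 lower) summed to 65.6 and 65.3 CPM with LMO1 and 55.4 and 59.4 CPM with vector. Their sum was 141 CPM in parental cells, mostly DCN (102 CPM), and 68.6 CPM in Kelly cells, mostly COL1A1 (57.9 CPM). Endothelial, haematopoietic, muscle and epithelial lists each summed to at most 8.53 CPM, and CD3E and HBB were at 0 in all 6 libraries. Whether these markers have a part in the channel results was not tested. In bulk RNA, fewer cells of a type and less RNA per cell cannot be told apart.

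Every library held a broad set of channel subunits. Between 45 and 53 members reached 1 CPM in a library, 62 did so in at least 1 library, and 33 stayed below it in all 6. Summed over members, the level was 1109 and 1090 CPM in the LMO1 libraries, 1065 and 1049 CPM in the vector libraries, 1243 CPM in parental cells and 1174 CPM in Kelly cells. The Kv class was the largest part of this sum in each library, at 560 to 691 CPM. Calcium- and sodium-activated channels came next at 194 to 306 CPM. These sums are shares of reads. They are not divided by gene length, and the classes differ in their number of genes, so they do not rank the classes by transcript level. Inward rectifiers summed to 150 to 157 CPM in the 4 modified BE2C libraries, 101 CPM in parental cells and 106 CPM in Kelly cells. K2P channels reached 136 CPM in Kelly cells against 57.1 to 65.9 CPM in the 5 BE2C libraries, and auxiliary subunits 148 CPM against 64.6 to 85.5 CPM.

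**Figure D1:**
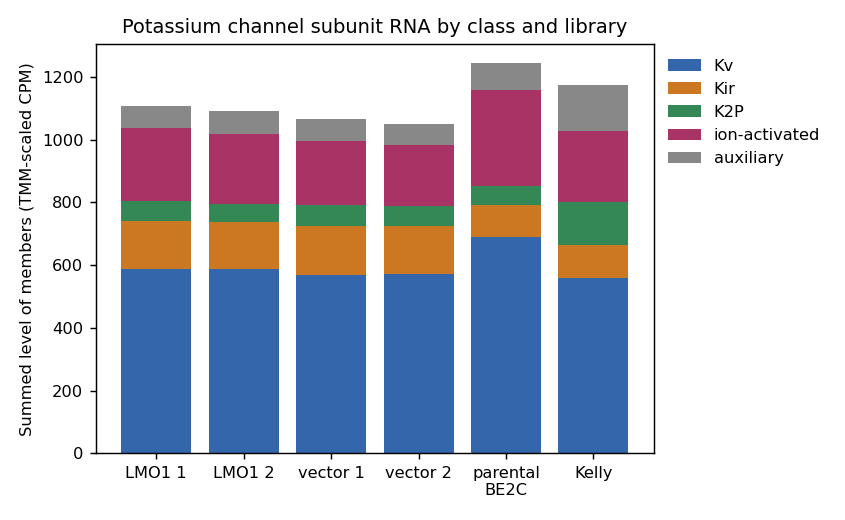
Summed TMM-scaled CPM of the members of each subunit class (vertical axis) in each of the 6 libraries (horizontal axis), 1 coloured segment per class. The sums are not divided by gene length. The LMO1 and vector columns differ little in height, at 1049 to 1109 CPM, while the Kelly column has larger K2P and auxiliary segments than any BE2C column.

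Levels of different genes can be compared only per length, so CPM was divided by the length of the gene's exons in kilobases. This length joins the exons of all annotated transcripts of a gene, and which transcripts the cells express was not determined. A gene with many or long annotated transcripts may therefore be placed too low, and the orders below depend on this choice. On this scale KCNH2, the pore subunit of the ERG current that repolarises heart and neuroendocrine cells, led in all 5 BE2C libraries, at 52.8 and 51.3 CPM per kb with LMO1, 55.6 and 55.1 with vector and 62.2 in parental cells. KCNJ8, a pore subunit of ATP-sensitive channels, came second at 42.8 and 41.5 CPM per kb with LMO1, 47.2 and 46.1 with vector and 27.0 in parental cells. KCNG1, a silent Kv subunit that works only with KCNB partners, came next in the 4 modified libraries at 21.9 to 31.6 CPM per kb. These 3 did not overlap one another within the modified libraries. KCNA3 and KCNT1 followed and overlapped, at 9.42 to 17.0 and 14.4 to 16.2 CPM per kb. In parental cells KCNT1, at 25.8 CPM per kb, stood ahead of KCNG1 at 23.5. The order in Kelly cells was another one, led by KCNG1 at 30.8, KCNT2 at 23.8, KCNH2 at 22.9, KCNJ8 at 11.4 and KCNK3 at 10.1 CPM per kb. KCNH2 made up 23.9 to 26.6% of the summed member CPM in the BE2C libraries and 9.87% in Kelly cells.

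The comparison of LMO1 with vector libraries asks what forced LMO1 expression changes in BE2C cells. It was tested with edgeR's quasi-likelihood test, and a gene was called at a Benjamini-Hochberg adjusted p below 0.05 over all 15480 genes tested. Whether a group's 2 libraries are separate cultures is not stated by the labels, and the p-values therefore reflect only library-to-library spread, which may be technical. Channel subunits moved both ways, and 14 of the 21 called ones by less than 2-fold. Of the 57 members that could be tested, 11 were called higher, 10 lower and 36 were not called. That is 36.8% called, beside 31% of all genes tested, of which 15.9% were called higher and 15.1% lower, so the members' share lies near the background. Calls of at least 2-fold were made for 7 members (12.3%), 5 higher and 2 lower. Among all genes 5.02% had such a call, 4.21% higher and 0.814% lower. The median log2 fold change of the tested members was 0.16, beside 0.00083 for all genes. The groups did not overlap in 39 of the 57 tested members, among them all 21 called ones, and in 63.7% of all genes tested, so separate groups are common in this design. Without the second LMO1 library 5 members were called lower, and without the first vector library 6.

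The filter on low counts kept members by their reads in the 4 modified libraries, so these counts cover only the members expressed there. The other 38 members were not tested. Of these, 7 had no read in any library (KCNA1, KCNA4, KCNA5, KCNA10, KCNC2, KCNJ16 and KCNK18) and 31 had some, with at most 16 counts in any modified library. In Kelly cells 9 of the 38 reached 1 CPM, and in parental cells 1 did, KCNA2.

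**Figure D2:**
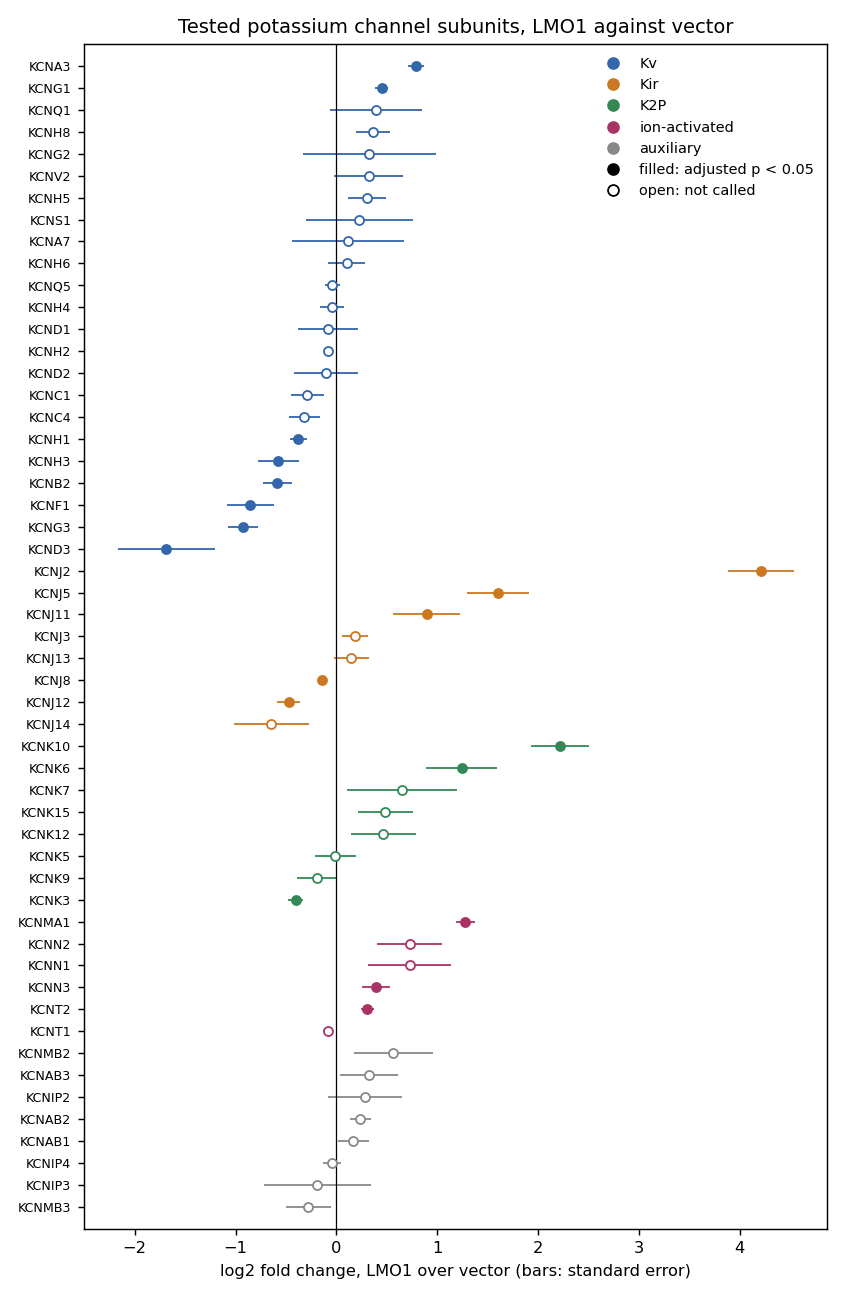
Log2 fold change of LMO1 over vector libraries (horizontal axis) with its standard error (bars) for 53 of the 57 tested members, grouped by class. Filled points are called members; KCNJ2 stands at 4.21 and KCND3 at -1.69, and no auxiliary subunit is called.

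Inward rectifiers had the member with the largest rise. KCNJ2, a strong inward rectifier that holds the resting potential of muscle and nerve cells, was at 9.32 and 5.94 CPM in the LMO1 libraries, 0.275 and 0.523 CPM in the vector libraries, 1.05 CPM in parental cells and listed at 0 in Kelly cells. Both LMO1 libraries stood far above every other library, on 178 and 135 counts against 6 and 13 in the vector libraries. The mean was 7.63 ± 2.39 CPM with LMO1 and 0.399 ± 0.176 CPM with vector (SD, n = 2), an 18.5-fold difference by edgeR (log2 fold change 4.21, SE 0.32, adjusted p = 6.11e-15). KCNJ5, a subunit of the G-protein-gated channels that slow heart and neuronal firing, was at 3.67 and 3.70 CPM with LMO1, 0.916 and 1.49 CPM with vector, 0.565 CPM in parental cells and 2.20 CPM in Kelly cells. Only the LMO1 libraries exceeded 3 CPM (log2 fold change 1.60, SE 0.31, edgeR adjusted p = 5.52e-05).

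Both pores of the ATP-sensitive channels, which couple potassium outflow to metabolism, were among the called members, in opposite directions. KCNJ11 was at 3.46 and 1.85 CPM with LMO1, 1.42 and 1.41 CPM with vector, 1.36 CPM in parental cells and 4.20 CPM in Kelly cells. The groups did not overlap, but the LMO1 libraries lay far apart (log2 fold change 0.89, SE 0.33, edgeR adjusted p = 0.0366). Without the first LMO1 library the log2 fold change of KCNJ11 was 0.39 (adjusted p = 0.579), and the call was also lost without either vector library (0.0998 and 0.118), over a range of 0.0176 to 0.579 in all alternatives. KCNJ8 was at 102 and 99.3 CPM with LMO1, 113 and 110 CPM with vector, 64.4 CPM in parental cells and 27.2 CPM in Kelly cells. The difference was small, a log2 fold change of -0.14 (SE 0.047, edgeR adjusted p = 0.0188). Its call was lost without the first LMO1 library (adjusted p = 0.0700), the second LMO1 library (0.196) and the first vector library (0.148), over a range of 0.0166 to 0.196 in all alternatives. ABCC9, the sulphonylurea receptor that pairs with KCNJ8, was named after its values were seen and was not called, at 108 and 102 CPM with LMO1 against 95.6 and 101 CPM with vector (edgeR adjusted p = 0.120).

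KCNJ12, a strong inward rectifier related to KCNJ2, was at 14.3 and 13.7 CPM with LMO1, 20.6 and 18.5 CPM with vector, 11.2 CPM in parental cells and 36.1 CPM in Kelly cells. It fell while KCNJ2 rose, with a log2 fold change of -0.47 (SE 0.11, edgeR adjusted p = 0.000846). KCNJ18 is a near-identical copy of KCNJ12 and held 0 to 11 counts in a library, so the split of reads between the pair is uncertain. Of the 8 tested inward rectifiers, 3 rose, 2 fell and 3 (KCNJ3, KCNJ13 and KCNJ14) were not called, with a median log2 fold change of 0.17. That is 62.5% called, beside 31% of all genes tested, in a class of few genes. Inward rectifiers called numbered 3 without the first LMO1 library or without the first vector library.

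The bases just before the start of transcription are given for 4 called members, the 3 of largest change that have an entry in the RefSeq promoter table (KCNJ2, KCNK10 and KCND3) and KCNMA1, which had the lowest adjusted p. Each run is the 250 bases before the start, 5′ to 3′ on the gene's strand in GRCh38.p14, with CG dinucleotides in capitals. KCNJ2 lies at chr17:70169282-70169531 on the plus strand, and KCNK10 (chr14:88326913-88327162), KCND3 (chr1:111989669-111989918) and KCNMA1 (chr10:77637809-77638058) on the minus strand.
KCNJ2: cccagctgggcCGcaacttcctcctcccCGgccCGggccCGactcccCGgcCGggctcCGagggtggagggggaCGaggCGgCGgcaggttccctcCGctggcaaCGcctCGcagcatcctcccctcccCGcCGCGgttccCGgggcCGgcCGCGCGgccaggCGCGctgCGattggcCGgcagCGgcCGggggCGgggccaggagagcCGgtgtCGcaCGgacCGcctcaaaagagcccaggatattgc
KCNK10: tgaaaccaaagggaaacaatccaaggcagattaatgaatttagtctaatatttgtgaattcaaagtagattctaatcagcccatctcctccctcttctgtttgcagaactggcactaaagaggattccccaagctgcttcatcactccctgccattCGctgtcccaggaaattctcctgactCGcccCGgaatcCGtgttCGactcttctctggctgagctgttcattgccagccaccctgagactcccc
KCND3: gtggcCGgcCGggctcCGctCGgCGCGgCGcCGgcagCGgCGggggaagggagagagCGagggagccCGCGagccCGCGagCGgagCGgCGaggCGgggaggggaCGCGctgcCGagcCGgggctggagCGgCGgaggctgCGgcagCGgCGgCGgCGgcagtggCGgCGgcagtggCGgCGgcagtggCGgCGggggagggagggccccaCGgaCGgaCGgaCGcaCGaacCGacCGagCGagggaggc
KCNMA1: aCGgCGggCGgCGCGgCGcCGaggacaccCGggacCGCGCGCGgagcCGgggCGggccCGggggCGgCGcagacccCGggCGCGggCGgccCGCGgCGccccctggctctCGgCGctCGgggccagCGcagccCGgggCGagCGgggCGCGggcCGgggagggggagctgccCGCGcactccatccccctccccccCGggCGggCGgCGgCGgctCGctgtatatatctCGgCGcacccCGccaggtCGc

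These starts were unlike in base composition. CG dinucleotides numbered 32 in the KCNJ2 run, 46 in KCNMA1 and 44 in KCND3, but 5 in KCNK10, beside a median of 11 over all 27305 promoters of the table. The GC content was 77.6% for KCNJ2, 85.6% for KCNMA1, 82.8% for KCND3 and 48.0% for KCNK10. The letters CACGTG, a form of the E-box that reads the same on both strands, were in 6.49% of all promoters of this length. The GATA letters AGATAA on either strand were in 9.37%. Other forms of the E-box were not searched. Neither CACGTG nor AGATAA was found in the 14 called members with an entry, which says only that these letters are not in this window. An entry was found for 71 of the 95 members (74.7%), so no share over all members is given.

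Among K2P channels KCNK10 rose most. It is a leak channel of the TREK group, opened by stretch and lipids. Its level was 5.97 and 4.67 CPM with LMO1, 1.51 and 0.805 CPM with vector, 3.64 CPM in parental cells and 26.4 CPM in Kelly cells. Parental cells lay between the groups and Kelly cells above both (4.64-fold, log2 fold change 2.21, SE 0.29, edgeR adjusted p = 2.27e-08). KCNK6, a weak inwardly rectifying relative, was at 2.67 and 2.20 CPM with LMO1, 0.962 and 1.09 CPM with vector, 0.879 CPM in parental cells and 0.0336 CPM in Kelly cells. The LMO1 libraries were the only ones above 2 CPM (log2 fold change 1.24, SE 0.35, edgeR adjusted p = 0.00497). Without the first LMO1 library the log2 fold change of KCNK6 was 1.10 and its call was lost (adjusted p = 0.0877, over a range of 0.00189 to 0.0877 in all alternatives). KCNK3, the acid-sensitive TASK channel and the most abundant K2P gene per length in every BE2C library, went the other way. It was at 38.2 and 34.5 CPM with LMO1, 47.0 and 49.2 CPM with vector, 44.7 CPM in parental cells and 62.7 CPM in Kelly cells (log2 fold change -0.40, SE 0.074, edgeR adjusted p = 2.39e-05). Of 8 K2P members tested, 2 rose, 1 fell and 5 were not called, with a median log2 fold change of 0.48. That is 37.5% called, near the 31% of all genes tested. KCNK5 and KCNK9, both acid-sensitive leak channels, were among those not called, at 4.45 to 5.55 CPM and 4.58 to 5.59 CPM in the modified libraries.

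All 3 called members of the calcium- and sodium-activated class rose. KCNMA1, the pore of the big-conductance channel opened by calcium and depolarisation, was at 34.3 and 34.2 CPM with LMO1, 14.5 and 13.9 CPM with vector, 37.0 CPM in parental cells and 36.7 CPM in Kelly cells. The vector libraries were the low ones, since parental and Kelly cells both stood slightly above the LMO1 libraries. The mean was 34.3 ± 0.038 CPM with LMO1 and 14.2 ± 0.45 CPM with vector (SD, n = 2), a 2.43-fold difference by edgeR (log2 fold change 1.28, SE 0.095, adjusted p = 2.11e-15). KCNT2, a sodium-activated channel, was at 62.3 and 65.3 CPM with LMO1, 53.8 and 50.0 CPM with vector, 55.1 CPM in parental cells and 162.5 CPM in Kelly cells (log2 fold change 0.31, SE 0.064, edgeR adjusted p = 0.000162). Its close relative KCNT1 was not called, at 118 and 109 CPM with LMO1 and 123 and 119 CPM with vector (log2 fold change -0.09, SE 0.046, edgeR adjusted p = 0.154). KCNN3, a small-conductance calcium-activated channel, was at 14.0 and 11.5 CPM with LMO1, 10.7 and 8.86 CPM with vector, 15.9 CPM in parental cells and 8.48 CPM in Kelly cells. The groups lay close together (log2 fold change 0.39, SE 0.14, edgeR adjusted p = 0.0294). The KCNN3 call was lost without the first LMO1 library (log2 fold change 0.24, adjusted p = 0.335) and without the second vector library (0.25, adjusted p = 0.303), over a range of 0.0130 to 0.335 in all alternatives. The 6 tested members of the class had a median log2 fold change of 0.56, and KCNN1 and KCNN2 were not called. The called share of the class was 50%, beside 31% of all genes tested, on few genes.

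Voltage-gated alpha subunits were 27 of the 57 tested members and 7 of the 10 that fell. Of these 27, 3 rose and 7 fell, with a median log2 fold change of -0.05. That is 37.0% called, near the 31% of all genes tested, of which 15.9% were called higher and 15.1% lower. KCNQ5, a subunit of the M-current that restrains repetitive firing of neurons, was not called, at 37.7 and 35.7 CPM with LMO1 and 38.5 and 37.2 CPM with vector. KCNQ3, of the same family, was not tested, with 9 and 8 counts in the LMO1 libraries, 4 in each vector library, 22 in parental cells and 0 in Kelly cells. KCNA3, a Shaker-type delayed rectifier best known from T cells, was at 41.1 and 43.7 CPM with LMO1, 24.2 and 25.1 CPM with vector, 42.2 CPM in parental cells and 19.6 CPM in Kelly cells. Parental cells stood with the LMO1 libraries (1.73-fold, log2 fold change 0.79, SE 0.081, edgeR adjusted p = 3.96e-11).

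KCNB subunits form delayed rectifiers, and silent subunits such as KCNG1, KCNG3 and KCNF1 join them without forming channels of their own. This group moved in both directions. KCNG1 was at 63.9 and 69.8 CPM with LMO1, 50.2 and 48.3 CPM with vector, 52.0 CPM in parental cells and 68.0 CPM in Kelly cells (log2 fold change 0.45, SE 0.064, edgeR adjusted p = 1.77e-07). KCNG3 was at 6.65 and 6.91 CPM with LMO1, 12.6 and 13.4 CPM with vector, 4.23 CPM in parental cells and 3.47 CPM in Kelly cells (log2 fold change -0.93, SE 0.15, edgeR adjusted p = 1.36e-06). KCNF1 was at 3.14 and 2.29 CPM with LMO1, 4.49 and 5.27 CPM with vector, 2.66 CPM in parental cells and 0.0168 CPM in Kelly cells (log2 fold change -0.85, SE 0.24, edgeR adjusted p = 0.00409). The KCNF1 call was lost without the second LMO1 library (log2 fold change -0.63, adjusted p = 0.120) and without the second vector library (-0.73, adjusted p = 0.0658), over a range of 0.000687 to 0.120 in all alternatives. KCNB2 was at 7.85 and 7.18 CPM with LMO1, 10.95 and 11.6 CPM with vector, 1.11 CPM in parental cells and 4.13 CPM in Kelly cells (log2 fold change -0.58, SE 0.15, edgeR adjusted p = 0.00164). The vector libraries were the highest of the 6 for KCNG3, KCNF1 and KCNB2.

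KCND3, which carries A-type current, was at 0.733 and 0.264 CPM with LMO1, 1.88 and 1.29 CPM with vector, 0.167 CPM in parental cells and 1.01 CPM in Kelly cells. It was the member with the largest fall (log2 fold change -1.69, SE 0.48, edgeR adjusted p = 0.00562), at a level near 1 CPM. Its value moved between -2.55 without the first LMO1 library and -1.09 without the second. The KCND3 call was lost without the second LMO1 library (adjusted p = 0.186) and without the first vector library (-1.39, adjusted p = 0.111), over a range of 0.00254 to 0.186 in all alternatives. KCNC1, a fast-deactivating channel of rapidly firing neurons, and KCND1, another A-type channel, were not called, at 6.69 to 9.02 CPM and 1.83 to 2.60 CPM in the modified libraries. KCNC4, at 7.84 to 11.1 CPM, was called lower only without the second vector library (log2 fold change -0.48, adjusted p = 0.0405, over a range of 0.0405 to 0.653 in all alternatives).

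The KCNH genes encode the EAG, ERG and ELK channels, and 2 of their 7 tested members were called, both lower, a share (28.6%) near the 31% of all genes. KCNH1, the EAG channel, was at 26.0 and 28.5 CPM with LMO1, 33.8 and 37.3 CPM with vector, 25.2 CPM in parental cells and 16.6 CPM in Kelly cells (log2 fold change -0.38, SE 0.084, edgeR adjusted p = 0.000396). KCNH3, an ELK channel, was at 3.88 and 4.05 CPM with LMO1, 6.60 and 5.31 CPM with vector, 3.33 CPM in parental cells and 9.43 CPM in Kelly cells (log2 fold change -0.57, SE 0.20, edgeR adjusted p = 0.0273). The KCNH3 call was lost without the first LMO1 library (-0.55, adjusted p = 0.125), the second LMO1 library (-0.61, adjusted p = 0.102) and the first vector library (-0.42, adjusted p = 0.261), over a range of 0.0128 to 0.261 in all alternatives. KCNH2 was at 267 and 260 CPM with LMO1, 281 and 279 CPM with vector, 315 CPM in parental cells and 116 CPM in Kelly cells. The LMO1 libraries were the lower ones of the BE2C line by a small margin that missed the threshold (log2 fold change -0.08, SE 0.033, edgeR adjusted p = 0.0533). It passed without the first LMO1 library (log2 fold change -0.10, adjusted p = 0.0276) and in 4 other alternatives: no filter on low counts (0.0303), limma-voom (0.0443), all 6 libraries in the fit (0.0451) and DESeq2's size factors (0.0460). Its adjusted p had a range of 0.0276 to 0.249 in all alternatives. KCNH4, KCNH5, KCNH6 and KCNH8 were not called. KCNH8, at 8.12 and 10.4 CPM with LMO1 and 8.43 and 6.20 CPM with vector, was called higher only without the first vector library (0.59, adjusted p = 0.0161, over a range of 0.0161 to 0.648 in all alternatives).

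**Figure D3:**
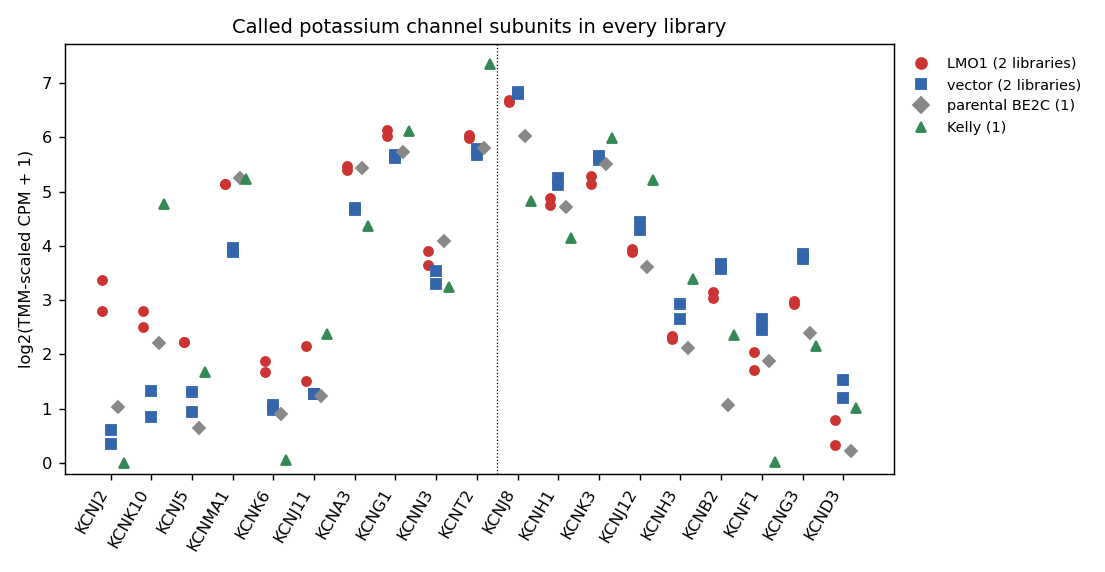
Log2 of TMM-scaled CPM plus 1 (vertical axis) of 19 of the 21 called members (horizontal axis) in each of the 6 libraries, 1 point per library, with members that rose to the left of the dotted line. The LMO1 points lie apart from the vector points for every member shown, by 18.5-fold for KCNJ2 and by little for KCNJ8 at 99.3 to 113 CPM.

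No auxiliary subunit was called. The 8 that could be tested had log2 fold changes from -0.28 to 0.56 with a median of 0.20. Among all genes tested, 31% were called. KCNIP4, a calcium-binding partner of KCND channels and the most abundant auxiliary gene per length in the modified libraries, was at 26.4 and 29.3 CPM with LMO1 and 28.1 and 29.5 CPM with vector. KCNAB2, a cytoplasmic partner of KCNA channels, was at 23.4 and 20.6 CPM with LMO1 and 20.1 and 17.4 CPM with vector. The groups were next to each other without overlap, and KCNAB2 was called only without the first vector library (log2 fold change 0.34, adjusted p = 0.0403, over a range of 0.0403 to 0.536 in all alternatives). KCNMB3, an accessory subunit of the KCNMA1 channel, was not called either, at 3.46 and 3.83 CPM with LMO1 and 4.72 and 4.19 CPM with vector.

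Genes outside the KCN symbols that work with these channels were taken as 3 lists, to be read beside the 15.9% of all genes called higher and 15.1% called lower. Of 24 partner genes, 21 were tested, 8 rose and 2 fell, with a median log2 fold change of 0.10. CALM2, which encodes calmodulin, a calcium sensor of KCNQ and KCNN channels, was at 1797 and 1793 CPM with LMO1 and 1480 and 1501 CPM with vector (log2 fold change 0.27, SE 0.022, edgeR adjusted p = 3.03e-14). CNTNAP2, which clusters KCNA channels along axons, was at 9.11 and 10.6 CPM with LMO1, 1.65 and 2.42 CPM with vector, 7.58 CPM in parental cells and 829 CPM in Kelly cells. It had the largest change of the list (log2 fold change 2.27, SE 0.21, edgeR adjusted p = 1.33e-12). DLG1, a scaffold that binds Kv and Kir tails, fell from 248 and 249 CPM to 185 and 197 CPM (log2 fold change -0.37, edgeR adjusted p = 1.43e-11).

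Of 24 genes for the potassium gradient and related channels, 16 were tested, 5 rose and 4 fell, with a median log2 fold change of 0.11. HCN3, a hyperpolarisation-activated cation channel, rose (log2 fold change 0.53, edgeR adjusted p = 8.60e-05). FXYD6, a modulator of the sodium pump, fell (-0.50, edgeR adjusted p = 8.24e-10). Of 12 regulators of channel expression and turnover, 11 were tested, 1 rose and 4 fell, with a median of -0.02. The kinase PRKCA fell (-0.29, edgeR adjusted p = 5.06e-09), as did the ubiquitin ligase NEDD4 (-0.37, edgeR adjusted p = 6.44e-08). CASK, a scaffold, was also called lower (-0.21, edgeR adjusted p = 0.00207), and so was the kinase MAPK14 (-0.14, edgeR adjusted p = 0.0177). The CASK call was lost without the second LMO1 library (-0.19, adjusted p = 0.0689, over a range of 0.000838 to 0.0689 in all alternatives). The MAPK14 call was lost without any one of the 4 libraries (adjusted p between 0.0506 and 0.195), over a range of 0.0134 to 0.195 in all alternatives. Of the list, 2 genes were called without the second LMO1 library, 3 without the first vector library and 3 without the second vector library.

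The parental library shows on which side of the contrast the unmodified line lay. Of the 10 members that fell, 8 (KCND3, KCNH1, KCNJ8, KCNH3, KCNJ12, KCNF1, KCNG3 and KCNB2) had a parental level on the LMO1 side, at or below the higher of the 2 LMO1 libraries. Among all falling genes whose groups did not overlap, this share was 43.3%. Of the 8 members, all but KCNF1 lay below both LMO1 libraries, so this side does not mean a level like that with LMO1. KCNH1 was close, at 25.2 CPM in parental cells against 26.0 and 28.5 CPM with LMO1. KCNB2 (1.11 against 7.85 and 7.18 CPM) and KCNJ8 (64.4 against 102 and 99.3 CPM) stood apart from all 4 modified libraries. KCNK3 lay between the groups. Of the 11 members that rose, 3 (KCNA3, KCNN3 and KCNMA1) had a parental level at or above the lower LMO1 library, beside 41.9% of all rising genes. A further 4 (KCNT2, KCNK10, KCNJ2 and KCNG1) lay between, and KCNJ11, KCNJ5 and KCNK6 were among the other 4, on the vector side. The parental library has no replicate, was about as deep as both vector libraries together, and shares cells but no vector with them, so these positions carry no test.

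KCNMA1, the called member with the lowest adjusted p, had close companions in profile. Over the 6 libraries, the 5 of 11643 genes with at least 5 CPM on average that correlated best with it, by Pearson's r of log2(CPM + 1), were PDE10A (0.998), SLC25A24 (0.997), LYRM5 (0.996), VASH1 (0.996) and AGPAT4 (0.994). PDE10A was at 71.0 and 67.3 CPM with LMO1, 17.6 and 16.6 CPM with vector, 70.4 CPM in parental cells and 74.5 CPM in Kelly cells. All 5 were low in the vector libraries alone. These r values describe 6 points, 2 of them from each modified group, picked as the highest of many.

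The parental line was also set against the mean of the vector libraries, with 1 library on one side and no test. A gene counted when its difference in log2(CPM + 1), which understates the change of low genes, reached 2-fold and either side reached 1 CPM. The folds printed for single members are plain CPM ratios. Of 51 members kept, 8 were at least 2-fold higher in parental cells and 4 lower, 23.5% in all. Beside this, 11% of all genes differed so far, 8.11% higher and 2.88% lower. Kv channels were among the higher ones. KCND1 was at 12.1 CPM in parental cells against 2.24 and 2.50 CPM with vector (5.11-fold), and KCNC1 at 38.9 against 7.51 and 9.02 CPM (4.71-fold). In both the LMO1 libraries lay with the vector libraries or below, so the parental line stood apart from all 4 modified libraries. KCNJ14 (3.64-fold), KCNIP2 (3.51-fold), KCNK10 (3.14-fold), KCNMA1 (2.60-fold) and KCNAB3 (2.57-fold) were also higher. KCNB2 was 10.2-fold higher with vector, KCND3 9.46-fold, KCNG3 3.06-fold and KCNJ13 2.76-fold. The parental library held 48663459 counts against 21946052 and 25070942, and whether it was sequenced with the others is not given in the sources used here. Its fibroblast marker sum was 141 CPM against 55.4 and 59.4 CPM, most of it DCN (102 CPM against 18.8 and 20.9 CPM). LUM and COL1A1 were also higher in parental cells, but COL3A1 (9.67 against 24.5 and 25.8 CPM) and PDGFRA were lower, so these markers did not move together.

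Kelly and parental BE2C cells, 1 library each, differed in many channel subunits. Of the 59 members with at least 1 CPM on either side, 26 were at least 2-fold higher in Kelly cells and 10 lower, 61.0% in all. Among all genes 29.3% differed so far, 15.9% higher and 13.4% lower. The members' shares were 44.1% higher, which is above that background, and 16.9% lower, which is near it. A gene could pass the floor through its higher side alone, as KCNJ9 did in Kelly cells and KCNT1 in parental cells. These shares are therefore only a description. The median log2 ratio of members was 0.48, beside -0.01 for all genes. By class, 9 of 27 Kv members were higher and 5 lower, 6 of 11 Kir members higher and 3 lower, 4 of 7 K2P members higher and none lower, 2 of 6 ion-activated members higher and 2 lower, and 5 of 8 auxiliary members higher and none lower. With 1 library a side these counts have no replicate check, and the exact 95% intervals below cover counting error only.

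**Figure D4:**
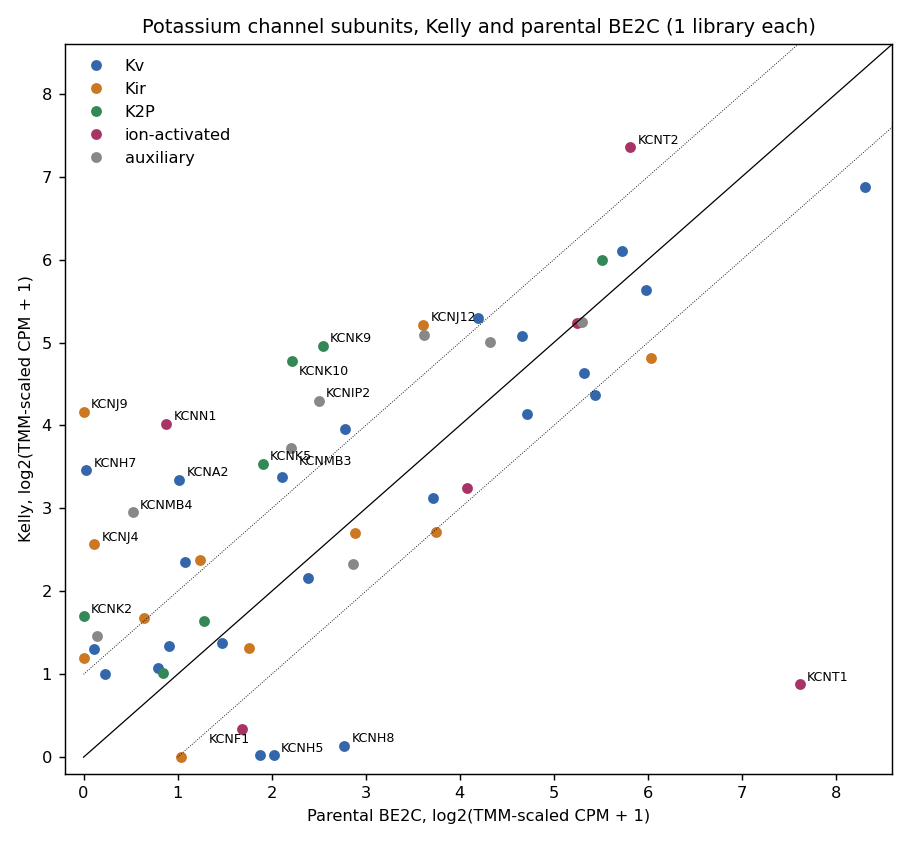
Of the 59 members kept, 55 in Kelly cells (vertical axis) against parental BE2C cells (horizontal axis), both as log2 of TMM-scaled CPM plus 1, coloured by class, with the line of equal level and dotted lines at 2-fold. KCNT1 lies far to the lower right, and KCNJ9, KCNH7 and KCNN1 to the upper left.

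The pair of sodium-activated channels went opposite ways. KCNT1 was at 195 CPM in parental cells and 0.839 CPM in Kelly cells, a ratio of 232 (176 to 313), while KCNT2 was at 55.1 CPM in parental cells and 162.5 CPM in Kelly cells, a ratio of 2.95 (2.82 to 3.08) in favour of Kelly. Small-conductance calcium-activated channels did likewise, with KCNN1 higher in Kelly cells (15.2 against 0.837 CPM, ratio 18.2, 13.2 to 25.6) and KCNN2 higher in parental cells (2.22 against 0.269 CPM, ratio 8.26). KCNMA1 was level, at 36.7 CPM in Kelly cells and 37.0 CPM in parental cells (ratio 0.992, 0.932 to 1.06).

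KCNH and silent subunits were also divided between the lines. KCNH7, an ERG relative of KCNH2, had 595 counts in Kelly cells (9.99 CPM) and 1 in parental cells, a ratio of 477 (85.3 to 18875), with at most 8 counts in a modified BE2C library. KCNH5 and KCNH8 were the reverse. KCNH5 was at 3.06 CPM in parental cells and 0.0168 CPM, a single count, in Kelly cells (ratio 182, 32.2 to 7241). KCNH8 was at 5.82 CPM in parental cells and 0.101 CPM in Kelly cells (ratio 57.8, 26.2 to 159). KCNF1 too had 1 count in Kelly cells against 2.66 CPM in parental cells (ratio 158, 27.9 to 6305). KCNH2 itself was 2.72-fold higher in parental cells (2.64 to 2.80). Other Kv members were higher in Kelly cells. KCNA2, a Shaker-type axonal channel, was at 9.18 CPM in Kelly cells and 1.03 CPM in parental cells (ratio 8.95, 6.68 to 12.2). KCNB2 was at 4.13 against 1.11 CPM (ratio 3.72).

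G-protein-gated and strong inward rectifiers differed in both directions. KCNJ9, a G-protein-gated subunit, had 1008 counts (16.9 CPM) in Kelly cells and 0 in all 5 BE2C libraries, at least 269-fold higher than the floor of the parental library. KCNJ6, of the same group and named after its values were seen, had 77 counts in Kelly cells and 0 in parental cells, at least 20.6-fold higher. KCNJ3, their common partner, was at 5.57 CPM in Kelly cells and 12.4 CPM in parental cells, 2.23-fold higher in the latter. KCNJ5, the remaining G-protein-gated subunit, was 3.89-fold higher in Kelly cells. KCNJ4, a strong inward rectifier, had 294 counts in Kelly cells and 4 in parental cells (ratio 58.9, 22.8 to 218). KCNJ2 was at 1.05 CPM in parental cells and at 0 in Kelly cells, at least 20.8-fold higher in parental cells. KCNJ8 was 2.37-fold higher in parental cells (2.23 to 2.51).

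The K2P and auxiliary genes past both the 1 CPM floor and 2-fold were all higher in Kelly cells. Below that floor, KCNK6 was higher in parental cells, at 0.879 CPM against 0.0336 CPM on 2 counts (ratio 26.2, 6.81 to 223). KCNK10 was at 26.4 CPM in Kelly cells and 3.64 CPM in parental cells (ratio 7.25, 6.20 to 8.53), KCNK9 at 30.1 and 4.84 CPM (6.22, 5.42 to 7.17) and KCNK5 at 10.6 and 2.74 CPM (3.88). KCNK2, the TREK channel closest to KCNK10, had 134 counts in Kelly cells and 0 in parental cells, at least 35.8-fold higher. Among auxiliary subunits, KCNMB4, the neuronal partner of KCNMA1, was at 6.75 and 0.440 CPM (ratio 15.3, 9.90 to 25.1). KCNIP2 was at 18.7 and 4.67 CPM (interval of the ratio 3.46 to 4.64), KCNMB3 at 12.2 and 3.62 CPM (3.37) and KCNAB1 at 33.0 and 11.3 CPM (2.92). KCNAB2, in contrast, was level at 36.9 and 38.3 CPM. Outside the members, ABCC8, the sulphonylurea receptor that pairs with KCNJ11, was named after its values were seen. It was at 22.2 CPM in Kelly cells and 3.58 CPM in parental cells, and KCNJ11 was 3.08-fold higher in Kelly cells.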

How the data were processed

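The authors deposited raw read counts by gene symbol, 1 column for each of the 6 libraries. TopHat2 2.0.6, HTSeq and hg19 are named in the submitters' processing notes, and the protocol in the labels names a stranded total RNA kit. The gene annotation, the strand setting of the counting and any filter are not given in the sources used here, so reads of overlapping or antisense genes may not be separated.

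From the counts, genes were kept with filterByExpr (15480 kept, 9890 removed). The LMO1 contrast was fitted in edgeR 4.0.16 (R 4.3.3), using TMM scaling, the quasi-likelihood test and Benjamini-Hochberg adjustment over all genes tested. The fit had 2 residual and 43.7 prior degrees of freedom. The common biological coefficient of variation was 3.60%. Replicates differed by more than sampling noise and were counted separately. Single-library comparisons used log2(CPM + 1) with a floor of 1 CPM on either side and no test.

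Named members were the called ones, those at 5 CPM or more in a library, the 10 highest and 10 lowest Kelly to parental ratios, those past 2-fold between parental and vector cells, and KCNH2, KCNQ3, KCNMA1 and KCNJ2 whatever their values. Some genes that this rule names are counted but not reported here by name. The other lists gave up to 4 called genes of lowest adjusted p. The members and lists were chosen with earlier results of these data known. Intervals (exact, 95%) and floors (3 counts) cover counting error only, since reads carried no molecular identifiers. Exon lengths came from GENCODE, for all 95 members, 1 under a later symbol. Promoters came from RefSeq on GRCh38.p14, a later build than that of the counts. Protein sequences were not used here. Alternatives were other scalings, filters, DESeq2 1.42.0, limma-voom (limma 3.58.1), a replicate block, all 6 libraries in 1 fit and leaving out each library, where a lone library is assumed to vary like the other group.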

Additional observations from a re-analysis of the deposited data

How the results depend on the processing

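With 2 libraries a group, small changes may go uncalled, and whether depth limited the calls of genes below 5 CPM was not tested. The LMO1 calls numbered 21 in the reported fit and 16 to 19 when 1 library was left out (8 to 12 higher, 5 to 10 lower). Leaving out 1 library gave 6 to 10 Kv calls, 3 to 4 Kir calls, 0 to 1 auxiliary calls and 2 to 4 calls among the regulators. A filter of 5 CPM in 2 libraries, which tests fewer genes, left 7 members called higher, 3 Kir calls and 1 K2P call. The other scalings, DESeq2, limma-voom, the fit without a filter and the fit of all 6 libraries gave 17 to 22 calls. Of the 21 called members, 13 kept their call and direction in each of the 12 alternatives that could test them, and 8 lost it in at least 1. DESeq2 did not call KCNH3 (adjusted p = 0.0889), KCNN3 (0.110) or KCNJ11 (0.117), limma-voom did not call KCNJ11 (0.0752), and scaling to library totals did not call KCNJ8 (0.0643) or MAPK14 (0.0586). Same-numbered libraries did not deviate together (correlation -0.0214), which cannot show whether they were paired, and the labels do not state a pairing. The replicate block was therefore kept as an alternative. With the block 21 members were called and 4847 of all genes, against 4797 without.

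No called member changed sign. Of the members named here that were not called, the log2 fold change crossed 0 in leave-one-out fits for KCNAB3 (-0.022 to 0.74), KCND1 (-0.37 to 0.13), KCNH4 (-0.11 to 0.014), KCNH6 (-0.23 to 0.39), KCNIP4 (-0.12 to 0.027), KCNJ13 (-0.068 to 0.33) and KCNK5 (-0.17 to 0.15). KCNK5 was also at 0.018 with library totals and 0.0080 with the 5 CPM filter. With 5 CPM required on either side, 6 members were at least 2-fold lower in Kelly cells. With no floor, 17.3% of all genes differed 2-fold between Kelly and parental cells and 6.23% between parental and vector cells. With 1 CPM added, a gene below 1 CPM on both sides cannot reach 2-fold. Dropping the floor therefore only adds genes that cannot count, and these lower shares follow from the measure. The cause of the other shifts was not tested.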
